A study of Mus musculus with 9 samples.

Results

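The Ifi200 cluster is a run of related interferon-inducible genes on distal chromosome 1 of the mouse. The genes described here were chosen by name as Ifi202b, Ifi203, Ifi204, Ifi205, Ifi207, Ifi208, Ifi209, Ifi213, Mndal and Aim2, and all 10 were found among the 27179 genes of the count table. Poly(A) RNA was sequenced from whole mandibles, teeth included, of 5 WT mice and 4 mice labelled FcgRIIB-/-. All were 6-month-old males labelled as the C57BL/6 strain, and the FcgRIIB-/- line, a model of lupus, had been received from another laboratory on a C57BL/6 background. The gene Fcgr2b lies 2.37 Mb before the cluster on the same chromosome. Its level was 24.0 ± 8.28 (SD, n = 5) CPM (counts scaled to the size of the library) in WT, and the mice labelled FcgRIIB-/- had 27.8 ± 2.90 (SD, n = 4) CPM, so the count did not show the targeted gene to be lower under that label (log2 fold change 0.21, adjusted p = 0.442 from edgeR). Groups are therefore named by their labels. Without WT replicate 2, whose Fcgr2b level was the highest of the 9, that log2 fold change was 0.46 and passed as higher (adjusted p = 0.0131 from edgeR).

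Many proteins of this family carry a HIN domain, which can bind double-stranded DNA, and many carry a pyrin domain, through which they can join other proteins. AIM2 uses the pyrin domain to recruit the adaptor ASC when DNA appears in the cytosol, and ASC then activates caspase-1, which matures interleukin-1 beta and interleukin-18. The product of Ifi202b, p202, has HIN domains but no pyrin domain and restrains AIM2. Ifi202b has been studied as a candidate gene of a lupus susceptibility interval, and its expression is known to differ between inbred strains of mice. p204, from Ifi204, takes part in interferon induction and in myeloid and bone cell differentiation, and the products of Ifi203, Ifi205, Ifi207, Ifi209 and Mndal are less well described. Ifi208 and Ifi213 have also been named Pydc3 and Pydc4 after their pyrin domains, and are known as members without a HIN domain.

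On mm10 the cluster ran from 173349547 to 174031755 of chromosome 1, a span of 0.682 Mb. In order of start position it held Aim2, Ifi213, Ifi209, Ifi208, Ifi207, Ifi204, Mndal, Ifi203, Ifi202b and Ifi205, with the further family genes Ifi214, Ifi211 and the pseudogene Ifi203-ps among them in the count table. Aim2, Ifi209 and Ifi208 were annotated on the plus strand and the other 7 on the minus strand. Promoter sequences of RefSeq for GRCm38.p6, covering 250 bases before to 50 bases after a start of transcription, were found for 9 of the 10 genes. They were searched on both strands for the core of the interferon-stimulated response element (ISRE), which IRF and STAT complexes bind, written GAAANNGAAA. It was present in promoters of 6 of the 9 genes (Ifi203, Ifi205, Ifi207, Ifi208, Ifi213 and Mndal) and in 3.44% of all 32851 promoters of this length. A match is a run of letters and does not show that a factor bound there. The GAS element of STAT factors (TTCNNNGAA, in 8.30% of all promoters) was found in 1 of the 9 genes, the PU.1 core (GAGGAA, 28.3%) in 3 and the letters of the TATA box (TATAAA, 13.6%) in 5. The TATAAA matches began between 178 and 212 bases before the start (Ifi208, Ifi209 and Ifi213) or between 11 and 45 bases after it (Ifi202b and Ifi205). They do not show a working TATA box. In Ifi208 and Ifi213 the PU.1 core overlapped the start of the ISRE core.

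The following windows of 60 bases, read 5′ to 3′ in the direction of the gene, are shown because they set the ISRE cores of neighbouring genes side by side. Capitals mark the ISRE core, and in Ifi209 the bases aligned to the core of its nearest copy, Ifi214.
Ifi203 (chr1:173942493-173942552, minus strand): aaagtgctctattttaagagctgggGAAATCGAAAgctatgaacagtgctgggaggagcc
Mndal (chr1:173880189-173880248, minus strand): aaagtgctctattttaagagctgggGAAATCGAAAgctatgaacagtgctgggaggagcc
Ifi208 (chr1:173673582-173673641, plus strand): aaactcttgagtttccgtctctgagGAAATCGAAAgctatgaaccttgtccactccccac
Ifi213 (chr1:173599311-173599370, minus strand): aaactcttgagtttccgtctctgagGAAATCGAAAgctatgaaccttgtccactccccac
Ifi207 (chr1:173741816-173741875, minus strand): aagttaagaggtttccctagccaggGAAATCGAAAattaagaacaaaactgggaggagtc
Ifi205 (chr1:174031855-174031914, minus strand): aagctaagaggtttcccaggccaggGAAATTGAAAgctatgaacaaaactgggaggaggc
Ifi214 (chr1:173536002-173536061, minus strand): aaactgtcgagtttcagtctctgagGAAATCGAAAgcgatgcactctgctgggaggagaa
Ifi209 (chr1:173630755-173630814, plus strand): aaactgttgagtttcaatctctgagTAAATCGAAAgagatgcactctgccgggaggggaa
The windows of Ifi203 and Mndal had 0 mismatches, and so did those of Ifi208 and Ifi213. Over the whole promoters, Ifi203 (the second of 2 annotated starts) and Mndal (the first of 2) were 97.6% identical, Ifi208 and Ifi213 98.9%, and Ifi209 and Ifi214 96.0%. Ifi209 differed from Ifi214 within the core by G1T, counted from the first base of the core, so the searched pattern was absent from the Ifi209 promoter. No ISRE core was found in the promoter windows of Aim2 or Ifi202b. The promoter of Ifi202b is shown whole because it belongs to the most abundant gene of the cluster, with its GAS match in capitals.
Ifi202b (chr1:173982795-173983094, minus strand): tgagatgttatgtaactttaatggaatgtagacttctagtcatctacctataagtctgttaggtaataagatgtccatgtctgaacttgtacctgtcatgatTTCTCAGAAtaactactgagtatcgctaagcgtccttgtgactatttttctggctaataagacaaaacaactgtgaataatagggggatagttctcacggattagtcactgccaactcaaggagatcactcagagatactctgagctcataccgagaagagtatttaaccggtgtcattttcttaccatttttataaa

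**Figure D1:**
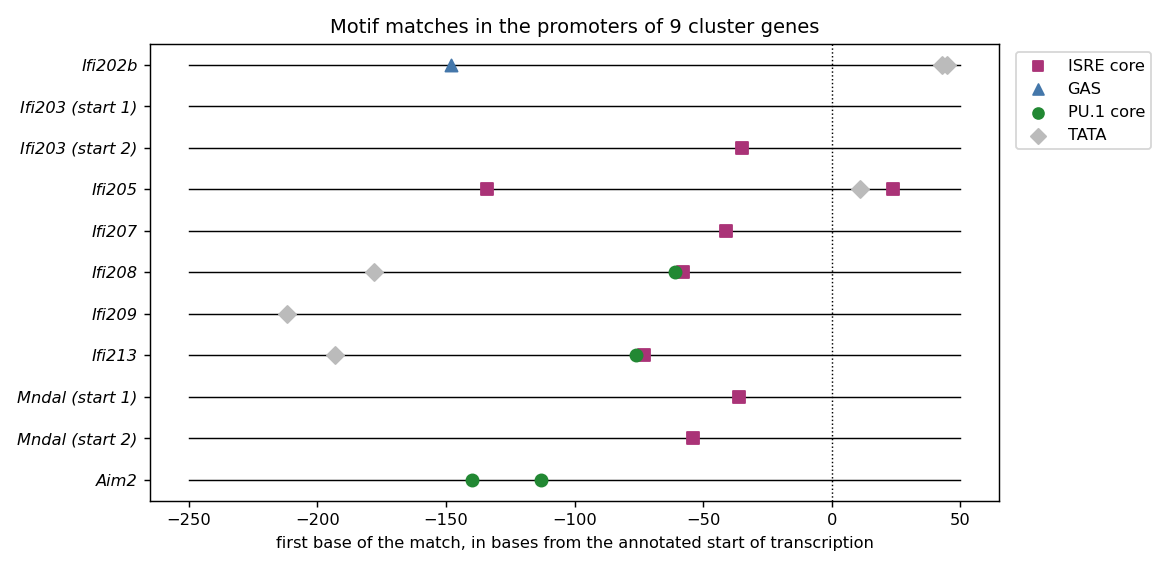
Motif matches in 11 RefSeq promoters of 9 cluster genes. The x axis gives the first base of each match in bases from the annotated start of transcription, each line is 1 promoter, and symbols stand for the 4 patterns. ISRE cores lay within 73 bases before the start in Ifi203, Ifi207, Ifi208, Ifi213 and Mndal, and at 134 bases before and 24 bases after it in Ifi205.

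The genes are similar enough for their reads to be hard to assign, and the library reads were 75 bases long. Every stretch of 75 bases in the GENCODE transcripts of each gene was therefore looked up in the transcripts of all other genes. Ifi202b and Aim2 shared 0 of 1623 and 0 of 3477 such stretches, so their counts are the least exposed to neighbouring copies. The shared part was 2.80% in Ifi207, 5.71% in Ifi203, 8.07% in Ifi213, 11.1% in Mndal, 11.8% in Ifi208, 13.2% in Ifi204, 16.6% in Ifi205 and 23.1% in Ifi209. Ifi209 shared these stretches with Ifi214, which had at most 10 counts in any library. How reads that matched several genes were counted is not given in the sources used here, and mapping to the C57BL/6J reference does not show from which allele a read came.

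**Figure D2:**
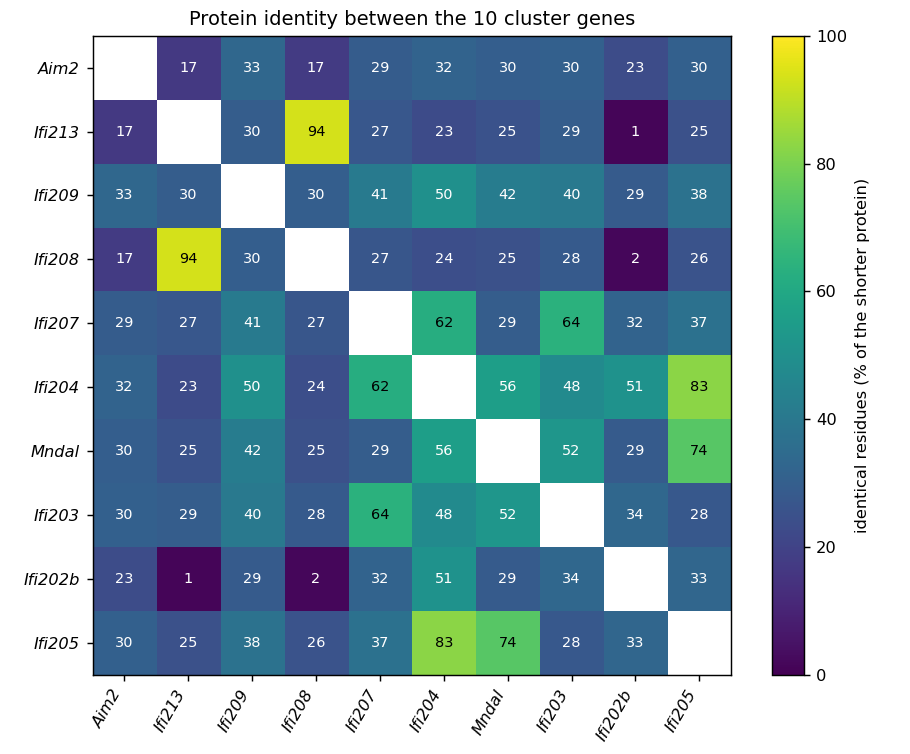
Identity between the proteins of the 10 genes, as identical residues in percent of the shorter protein, with genes in chromosome order on both axes. Ifi208 and Ifi213 were the most alike at 93.7%, followed by Ifi204 and Ifi205 at 82.7% and Ifi205 and Mndal at 74.0%.

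Of the 16329 genes tested by the quasi-likelihood method of edgeR, with an adjusted p of 0.05 as the limit, Ifi202b and Ifi203 were higher and Ifi209 and Ifi208 were lower in the mice labelled FcgRIIB-/-. Of the 10 genes, 9 had enough counts to be tested and 5 of these did not pass. Over all tested genes 14.0% were called higher and 19.3% lower, and in the cluster 2 of 9 genes were called in each direction, near the background. Ifi208 passed the count minimum only through the WT mice, where it was higher, so its call lends no support to this count, and without it Ifi209 was the lower gene. Ifi203 and Ifi202b are neighbours on the chromosome, and genes that did not pass lay between them and Ifi209. The call of Ifi202b was lost in some fits that left out a mouse, so no pattern by position is drawn from these calls. The libraries held between 21453880 and 28991631 counts.

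**Figure D3:**
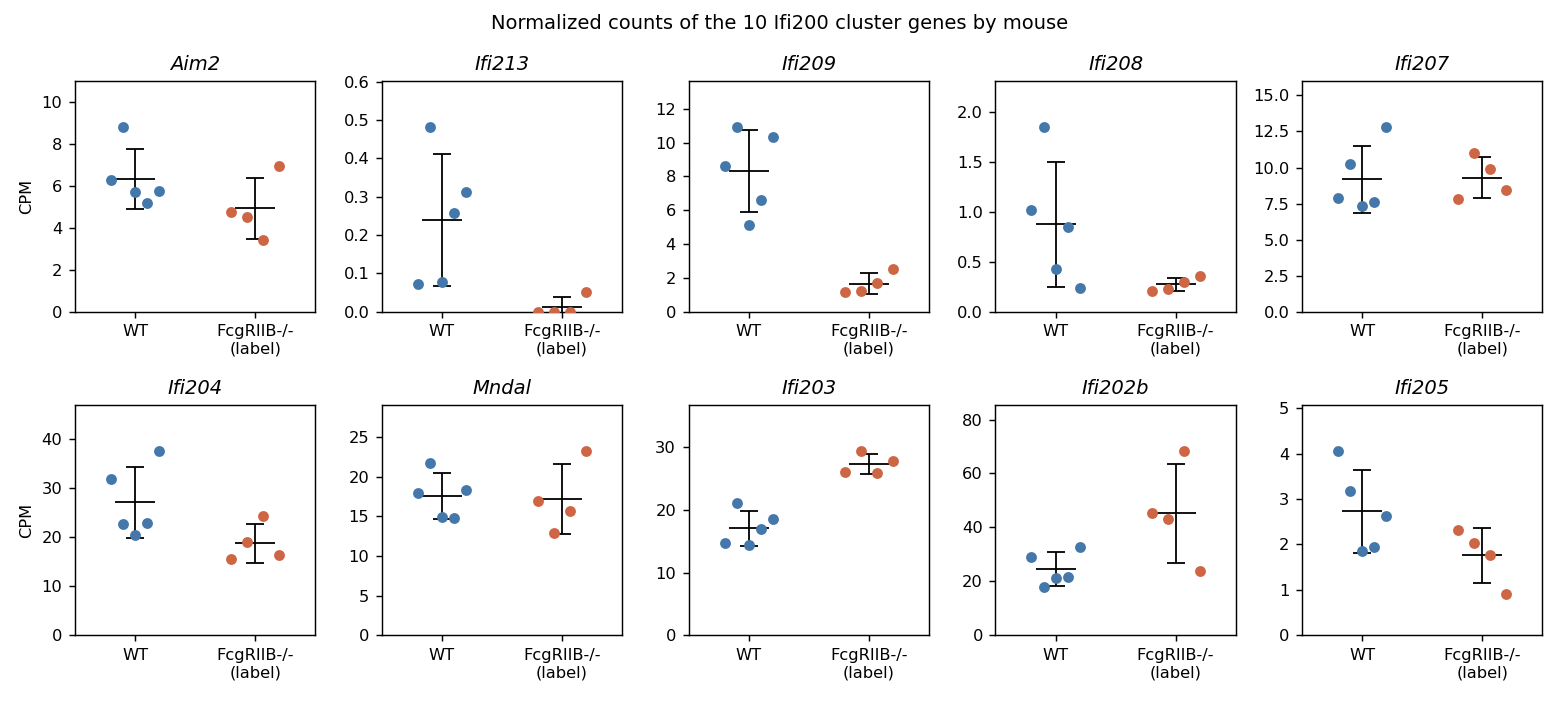
CPM of each cluster gene (y axes from 0, scaled by gene) in the 5 WT mice and the 4 mice labelled FcgRIIB-/-. Points are mice, horizontal lines are means and bars are 1 SD. Ifi203 and Ifi209 were the tested genes without overlap between the groups, and Ifi213, which was not tested, rests on 32 counts in all.

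Ifi202b, which encodes the AIM2 antagonist p202, was at 29.0, 17.8, 21.2, 21.8 and 32.9 CPM in WT replicates 1 to 5. In replicates 1 to 4 labelled FcgRIIB-/- it was at 45.4, 43.3, 68.4 and 23.8 CPM. Replicates 1 to 3 of these lay above every WT mouse, replicate 3 far above, and replicate 4 lay within the WT range. The means were 24.5 ± 6.19 (SD, n = 5) and 45.2 ± 18.3 (SD, n = 4) CPM, a log2 fold change of 0.88 with standard error 0.27 (edgeR adjusted p = 0.0269). In a two-sided exact permutation test over all assignments of mice to groups the p for Ifi202b was 0.0317, not adjusted for the 10 genes examined. The adjusted p rose above 0.05 when WT replicate 3 (0.0526), WT replicate 4 (0.0555), replicate 1 labelled FcgRIIB-/- (0.0545) or replicate 3 labelled FcgRIIB-/- (0.0851) was left out. Without the last of these the log2 fold change was 0.62, and over all mice left out in turn it was between 0.62 and 1.09.

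Ifi203 was the most even of the changed genes. Its level was 14.6, 21.0, 14.3, 16.9 and 18.4 CPM in WT replicates 1 to 5. It was 26.0, 29.3, 25.9 and 27.8 CPM in replicates 1 to 4 labelled FcgRIIB-/-, so every mouse with that label was above every WT mouse. In the same direction, 12.1% of all tested genes had no overlap between the groups. The mean rose from 17.1 ± 2.78 (SD, n = 5) to 27.3 ± 1.63 (SD, n = 4) CPM, a log2 fold change of 0.68 with standard error 0.11 (edgeR adjusted p = 0.00209). The two-sided exact permutation test gave an unadjusted p of 0.00794, the smallest that 5 mice against 4 allow. Over the 9 fits that each left out a mouse, the log2 fold change of Ifi203 was between 0.63 and 0.78, and the adjusted p was at most 0.00703.

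Mndal, whose promoter window matched that of Ifi203 base for base, did not pass. It was at 18.0, 21.7, 14.9, 14.8 and 18.4 CPM in WT replicates 1 to 5 and at 16.9, 12.85, 15.6 and 23.3 CPM in replicates 1 to 4 labelled FcgRIIB-/-. The groups overlapped throughout, and the log2 fold change was -0.03 with standard error 0.17 (edgeR adjusted p = 0.899). Counted within the same library, there were between 0.815 and 1.15 reads of Ifi203 for each read of Mndal in WT. In the mice labelled FcgRIIB-/- there were between 1.19 and 2.28, a ratio that does not depend on how libraries were scaled and that did not overlap between the groups. This pair was set side by side after its values were seen, and the ratio is given without a test. The pseudogene Ifi203-ps, which shares 3.84% of the 75-base stretches of Ifi203, had means of 2.24 ± 0.295 (WT, SD, n = 5) and 2.71 ± 1.52 CPM (labelled FcgRIIB-/-, SD, n = 4) and did not pass (adjusted p = 0.564 from edgeR).

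Ifi209 had the largest change among the tested genes of the cluster. In WT replicates 1 to 5 it was at 8.62, 10.9, 5.13, 6.61 and 10.3 CPM. In replicates 1 to 4 labelled FcgRIIB-/- it was at 1.19, 1.20, 1.695 and 2.53 CPM, and the highest of these was below the lowest WT mouse. In that direction 17.5% of all tested genes had no overlap. The mean fell from 8.32 ± 2.44 (SD, n = 5) to 1.66 ± 0.631 (SD, n = 4) CPM, a log2 fold change of -2.34 with standard error 0.30 (edgeR adjusted p = 0.000592). The unadjusted p of the two-sided exact permutation test was 0.0159. With each mouse left out the log2 fold change lay between -2.61 and -2.20 and the adjusted p was at most 0.00383. Its closest copy, Ifi214, had 17 counts over all WT mice and 9 over all mice labelled FcgRIIB-/-, too few for the test. The part of reads shared with Ifi214 in the level of Ifi209 was not tested. For each read of Ifi209 there were between 1.70 and 2.80 reads of Ifi203 in WT and between 11.0 and 24.4 in the mice labelled FcgRIIB-/-, again without overlap. This ratio too was formed after the values were seen and carries no test. Ifi203 was higher and Ifi209 lower in every mouse of that label, so the ratio could not overlap and adds no support.

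The close pair Ifi208 and Ifi213 was low in every library. The WT replicates 1 to 5 gave 28, 46, 11, 23 and 6 counts of Ifi208, and replicates 1 to 4 labelled FcgRIIB-/- gave 6, 5, 7 and 7. WT replicate 5 fell within the range of the other group. The mean of Ifi208 fell from 0.873 ± 0.628 (SD, n = 5) to 0.273 ± 0.0657 (SD, n = 4) CPM, with a log2 fold change of -1.67 with standard error 0.56 (edgeR adjusted p = 0.0411). Ifi208 entered the test only through its counts in WT, and the call rested on few reads. Without any single mouse labelled FcgRIIB-/- it was lost, with adjusted p from 0.0651 without replicate 4 through 0.0788 without replicate 3 and 0.0895 without replicate 2 to 0.099 without replicate 1. Without WT replicate 1, 2, 3 or 4 the gene no longer had enough counts for the test, and only without WT replicate 5 did the call hold (adjusted p = 0.0133 from edgeR).

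For Ifi213 the WT replicates 1 to 5 gave 2, 12, 2, 7 and 8 counts, and replicates 1 to 4 labelled FcgRIIB-/- gave 0, 0, 0 and 1. It did not reach the count minimum and was not tested. Set against the normalized library sizes, its 31 counts in WT and 1 count under the other label gave a ratio of WT to labelled FcgRIIB-/- of 22.1, with an exact 95% interval of 3.68 to 900 that covers counting error only. Where low genes were kept, Ifi213 passed as lower with an adjusted p of 0.015 in edgeR and of 0.00791 in DESeq2's Wald test.

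Ifi204, which encodes p204, was at 31.8, 22.6, 20.5, 22.9 and 37.6 CPM in WT replicates 1 to 5. It was at 15.5, 19.0, 24.3 and 16.3 CPM in replicates 1 to 4 labelled FcgRIIB-/-. Replicate 3 of these reached into the WT range and the others lay below it. Its log2 fold change was -0.53 with standard error 0.20 (edgeR adjusted p = 0.0616) and did not pass. It passed as lower in DESeq2's Wald test (adjusted p = 0.0405), and in edgeR without WT replicate 3 (adjusted p = 0.0438) or without replicate 3 labelled FcgRIIB-/- (adjusted p = 0.0353). Ifi205, whose protein is 82.7% identical to that of Ifi204, had between 48 and 112 counts in WT and between 18 and 66 under the other label. The Ifi205 means were 2.73 ± 0.916 (SD, n = 5) and 1.76 ± 0.605 (SD, n = 4) CPM, and it did not pass (log2 fold change -0.62, SE 0.31, edgeR adjusted p = 0.146).

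Aim2, the DNA sensor of the inflammasome, was at 6.27, 8.79, 5.71, 5.18 and 5.74 CPM in WT replicates 1 to 5 and at 4.765, 4.53, 3.43 and 6.94 CPM in replicates 1 to 4 labelled FcgRIIB-/-. The groups overlapped, and the log2 fold change of -0.37 with standard error 0.22 (edgeR adjusted p = 0.218) did not pass. Among the mice labelled FcgRIIB-/-, replicate 3 had the highest Ifi202b and the lowest Aim2, and replicate 4 the lowest Ifi202b and the highest Aim2. There were between 2.02 and 5.73 reads of Ifi202b for each read of Aim2 in WT and between 3.42 and 19.9 under the other label, so this ratio overlapped between the groups. Ifi207 was between 7.36 and 12.8 CPM in WT and between 7.85 and 11.0 CPM in the mice labelled FcgRIIB-/- (log2 fold change 0.02, SE 0.18, edgeR adjusted p = 0.950). The further family gene Ifi211, of whose 75-base stretches 63.6% recur in other genes, had a log2 fold change of -0.34 and did not pass (adjusted p = 0.196 from edgeR).

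Levels of different genes can be compared only per length. The exon length used was the union over all annotated transcripts of a gene, so the order depends on that choice. In CPM per kilobase of exon, the order in WT was led by Ifi202b at 14.5 ± 3.65, Ifi204 at 7.61 ± 2.05 and Mndal at 4.83 ± 0.793 (SD, n = 5), and each was above the next in all 5 mice. Ifi207 at 2.68, Ifi203 at 2.55 and Ifi209 at 2.34 CPM per kilobase differed by less than their spread. Aim2 followed at 1.81, then Ifi205 at 0.653, Ifi208 at 0.166 and Ifi213 at 0.0351 CPM per kilobase. In the mice labelled FcgRIIB-/- Ifi202b again led, at 26.6 ± 10.8 (SD, n = 4). Ifi204 at 5.27 and Mndal at 4.73 CPM per kilobase could not be ranked there, since Ifi204 was above Mndal in 2 of 4 mice. Ifi203, at 4.06, was above Ifi207 in 4 of 4 mice where it had been below it in 3 of 5 WT mice. This crossing rests on exon lengths of 6706 bases for Ifi203 and 3422 for Ifi207. In CPM the mean of Ifi203 was above that of Ifi207 in both groups (17.1 and 9.18 in WT, 27.3 and 9.295 under the other label). Ifi209, at 0.467 CPM per kilobase, was above Ifi205 in 2 of 4 mice.

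The summed level of the 10 genes overlapped between the groups while their proportions differed. The summed level was 114 ± 19.0 CPM (SD, n = 5) in the WT mice and 126.3 ± 17.5 CPM (SD, n = 4) in the mice labelled FcgRIIB-/-, with ranges of 91.5 to 139 and 110 to 151 CPM that overlapped. Of this sum, Ifi209 made up between 5.60% and 9.20% in WT and between 0.973% and 2.30% under the other label. Ifi204 made up between 19.1% and 27.0% in WT and between 12.9% and 16.1% under the other label. Ifi202b took between 15.0% and 23.9% of the sum in WT and between 21.5% and 45.2% in the mice labelled FcgRIIB-/-. These shares are a description and depend on each other, since they add up to the whole.

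**Figure D4:**
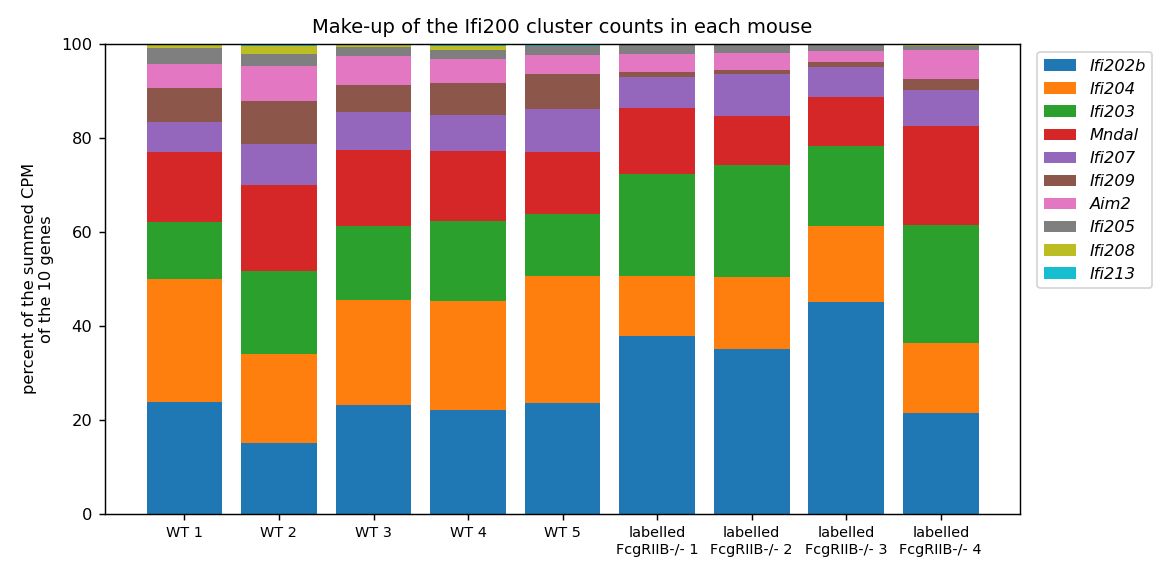
Share of each cluster gene in the summed CPM of the 10 genes (y axis, percent) in each of the 9 mice. Ifi209 was at or above 5.60% in all WT mice and at or below 2.30% in all mice labelled FcgRIIB-/-, and Ifi202b ranged from 21.5% to 45.2% among the latter.

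Of the 8 tested genes before the cluster, examined in the same fit, 3 were lower, 1 was higher and 4 did not pass. Over all tested genes 19.3% were called lower and 14.0% higher. The nearest tested gene before Aim2 was Ackr1, a chemokine-binding receptor of red cells and venules, with a log2 fold change of 0.03 (adjusted p = 0.905 from edgeR). Next to it lay Fcer1a, the IgE receptor chain of mast cells and basophils. Its mean was 0.928 CPM in WT and 0.0629 CPM under the other label. Its log2 fold change was -3.75 (adjusted p = 0.00023 from edgeR). Fcer1a passed the count minimum only through the WT mice, where it was higher, so its call lends no support to this count. The other called genes on this side were Cfap45 and Slamf8, both lower, and Fcrl6, which was higher.

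**Figure D5:**
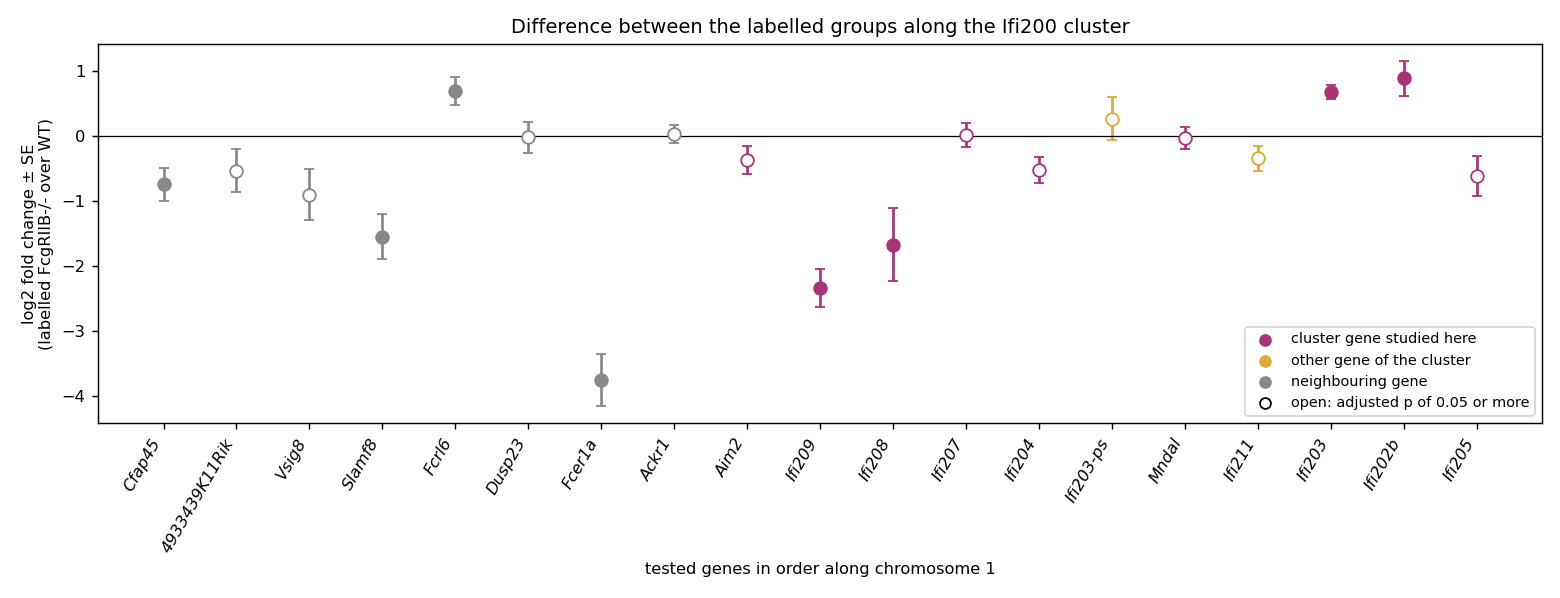
log2 fold change of the mice labelled FcgRIIB-/- over WT (y axis, bars are 1 standard error) for tested genes in their order along chromosome 1, from 8 genes before the cluster to its last gene. Filled points passed an adjusted p of 0.05 in edgeR. Ifi209 lay below 0 and Ifi203 and Ifi202b above it, with genes that did not pass between them. Ifi208, also below 0, passed the count minimum only through the WT mice.

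A list of 20 tested inflammasome genes held other sensors beside genes of the AIM2 route. In the mice labelled FcgRIIB-/- 2 of the 20 were higher and 11 lower, where 14.0% of all tested genes were higher and 19.3% lower. The median log2 fold change of the list was -0.65, beside 0.01 over all tested genes. The sensors Nlrp3, Nlrp1a, Mefv, Naip2 and Naip5 were among the lower genes, and Nlrc4 and Nlrp1b did not pass. The count therefore does not describe the AIM2 route alone. Nlrp1a passed the count minimum only through the WT mice, where it was higher, so its call lends no support to the count. Casp1, the protease that AIM2 activates through ASC, rose from 39.8 ± 4.17 (SD, n = 5) to 55.7 ± 6.83 (SD, n = 4) CPM (log2 fold change 0.48, adjusted p = 0.00468 from edgeR), and Ninj1, which ruptures the membrane of dying cells, also rose. Pycard, which encodes ASC, fell from 34.4 ± 9.81 (SD, n = 5) to 20.5 ± 1.10 (SD, n = 4) CPM (log2 fold change -0.75, adjusted p = 0.00825 from edgeR). Il18, a cytokine that caspase-1 matures, fell from 11.2 ± 3.52 (SD, n = 5) to 4.36 ± 0.156 (SD, n = 4) CPM (log2 fold change -1.36, adjusted p = 0.00135 from edgeR), as did Il1a and Nlrp1a. Il1b ranged from 6.46 to 37.7 CPM in WT and from 7.25 to 21.0 CPM under the other label and did not pass (adjusted p = 0.535 from edgeR). Gsdmd, the pore-forming target of caspase-1, did not pass either (log2 fold change -0.14).

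A list of 25 tested genes of nucleic acid sensing was not limited to the cytosol, since it held Tlr7, Tlr9 and Dnase1l3. Of the 25 genes, 2 were higher and 5 lower, near or below the background of 14.0% and 19.3%, with a median log2 fold change of -0.05. Irf3, the transcription factor below STING, rose by a log2 fold change of 0.33 (adjusted p = 0.00609 from edgeR), and Rnaseh2a, a subunit of ribonuclease H2, by 0.22. Tlr9, Dnase1l3 and Trim56 fell, with log2 fold changes of -1.66, -1.49 and -1.17. Cgas (-0.34), Tmem173, which encodes STING (-0.14), and Trex1 (0.16) did not pass.

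Of 41 tested genes of the type I interferon response, to which the cluster belongs, 12 were higher and 6 lower in the mice labelled FcgRIIB-/-, beside 14.0% and 19.3% of all tested genes, with a median log2 fold change of 0.13. Ifit1 rose from 11.9 ± 4.25 (SD, n = 5) to 25.7 ± 7.75 (SD, n = 4) CPM and Ifit3 from 15.4 ± 4.34 (SD, n = 5) to 31.0 ± 3.66 (SD, n = 4) CPM, and Oas2 also rose. Oas3 fell by 1.68, Rsad2 by 1.12 and Isg20 by 0.963 on the log2 scale, all with adjusted p under 0.05 in edgeR.

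Whole mandibles hold many cell types, and in such samples fewer cells of a type cannot be told apart from less RNA per cell. The marker counts below stand beside 14.0% of all tested genes called higher and 19.3% called lower. Those of bone and tooth, endothelial, and T and NK cell markers were near or below these shares. Markers of bone and tooth, the labelled tissue, were detected in every mouse, with sums from 34300 to 59700 CPM in WT and from 51500 to 73700 CPM under the other label, and of 10 such markers 1 was higher and 2 were lower. Of 10 skeletal muscle markers 6 were higher and none lower in the mice labelled FcgRIIB-/-, with sums from 6870 to 16200 CPM in WT and from 17200 to 29700 CPM under the other label. Of 10 markers of keratinized epithelium 1 was higher and 7 were lower, with sums from 5640 to 20200 CPM and from 4470 to 5630 CPM. For muscle and epithelium the sums did not overlap between the groups, though for epithelium the ranges almost met. All 14 neutrophil markers were lower in the mice labelled FcgRIIB-/-, and their summed level ranged from 1210 to 3720 CPM in WT and from 144 to 436 CPM under the other label. Of 16 monocyte and macrophage markers 9 were lower and none higher, with sums from 954 to 1540 CPM and from 693 to 948 CPM. Of 12 B cell markers 10 were lower, with sums from 84.7 to 184 CPM and from 58.0 to 88.5 CPM, and of 12 markers of T and NK cells 2 were lower, with sums from 16.2 to 74.8 CPM and from 11.6 to 16.8 CPM. Only through the WT mice did the B cell markers Ms4a1, Vpreb1, Vpreb3, Igll1 and Fcrla and the marker Nkg7 pass the count minimum. Their calls lend no support to these counts. All 11 erythroid markers were lower, with sums from 2260 to 2590 CPM in WT and from 336 to 742 CPM under the other label. Of 9 osteoclast markers 7 were lower, with sums from 861 to 1220 CPM and from 281 to 524 CPM. The neutrophil, monocyte and macrophage, erythroid and osteoclast sums did not overlap between the groups either. Of 10 endothelial markers 2 were higher and 1 was lower. None of these markers was at 0 in all libraries. WT replicate 2 had the highest sums of B cell, T and NK cell, monocyte and macrophage, and bone and tooth markers in WT. Its muscle and epithelium sums were the lowest in WT. Replicate 4 had the highest sums of B cell, bone and tooth, and erythroid markers under the other label, and the lowest of osteoclast and epithelium markers. Other sums of the 2 mice did not match. Muscle was 28200 CPM in replicate 4, in the upper part of its group, and osteoclast was 1150 CPM in WT replicate 2, in the upper part of WT. The monocyte and macrophage sum of replicate 4 was 753 CPM, within the range of its group. These 2 mice had the highest levels of Mndal, Ifi209 and Aim2 in their groups. The markers and genes in this match were set side by side after their values were seen. The part of these cell types in the levels of the cluster genes was not tested.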

How the data were processed

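RNA-seq was performed on mandibles of 5 WT mice and 4 mice labelled FcgRIIB-/-. According to the methods, the authors trimmed reads with Trim Galore, aligned them to mm10 using HISAT 02.1.0 and summarized them per gene with featureCounts, and they deposited raw counts. Strand setting, annotation release and the handling of multi-mapped reads are not given in the sources used here. One further column of counts matched no sample and was not used (1 column). Samples were assigned from their titles.

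Counts were analysed in R 4.3.3 with edgeR 4.0.16 (filterByExpr with a minimum count of 10, TMM, quasi-likelihood test, no covariate, Benjamini-Hochberg adjustment over 16329 genes, threshold 0.05), tested beforehand on simulated counts. Depth was between 21453880 and 28991631 counts, and p-values measure the spread between these mice. Standard errors (SE) were taken as the size of each log2 fold change divided by the root of its F statistic. CPM used TMM-normalized library sizes. DESeq2 1.42.0, other filters and scaling, a replicate block and leaving out each mouse were alternatives. No pair of libraries within a group was near-identical in its counts. Coordinates and promoters are from RefSeq (GRCm38.p6), exon lengths and transcripts from GENCODE, also for GRCm38. Proteins translated from the latter were aligned globally in Biopython 1.88 with free end gaps.

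The cluster genes and gene lists were chosen with earlier results of these data known. Beside the cluster genes, the text names the other family genes in the table, the 8 tested genes before the cluster (those after it are not reported here), fixed members of the pathways, the 3 called genes of each pathway list with the largest change in each direction, and for each tested gene the 2 genes most like it within labels.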

Additional observations from a re-analysis of the deposited data

Results flagged for a closer look

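Of 29 groups of values examined, 2 held a mouse standing apart from the rest of its group, and chance alone marks about 1 in 20. Both concern Fcgr2b and none a gene of the cluster. WT replicate 2 had 38.3 CPM, where the gap to the next WT mouse was 0.713 of the range, and replicate 4 labelled FcgRIIB-/- had 32.1 CPM, with a gap of 0.897 of the range.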

How the results depend on the processing

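With each mouse left out in turn, between 1 and 2 of the cluster genes were called higher and between 1 and 2 lower. Ifi203 and Ifi209 were called in all 9 of these fits, Ifi202b in 5 and Ifi208 in 1. DESeq2's Wald test called 4 lower (Ifi204, Ifi208, Ifi209 and Ifi213). Requiring at least 10 counts in every library left 1 lower gene, since Ifi208 was then not tested, and a fold change of at least 2 left 0 higher genes. Signs turned for 3 genes that were not called. Without WT replicates 1, 3 and 4 and without replicates 2 and 3 labelled FcgRIIB-/-, the log2 fold change of Ifi207 was -0.0167, -0.0389, -0.0271, -0.0717 and -0.0115, and its highest value was 0.19 without WT replicate 5. That of Mndal was 0.0705 without WT replicate 2, 0.006 without WT replicate 5, 0.0838 without replicate 2 labelled FcgRIIB-/- and 0.0108 without replicate 3 labelled FcgRIIB-/-, with a lowest value of -0.21 without replicate 4 of that label. That of Ifi203-ps ranged from -0.14 without replicate 4 labelled FcgRIIB-/- to 0.53 without replicate 2 of that label. The cause was not tested. The ratio of summed CPM was 1.11, and between 1.04 and 1.17 in the alternatives.

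The mice that share a replicate number are different animals, and their deviations from the group means correlated between -0.114 and 0.097. Of the 4 numbers, 1 WT mouse and 0 mice of the other label were closest to their own number. With the replicate block, 1594 genes were called higher and 2410 lower in place of 2289 and 3144, and the cluster genes called were Ifi202b, Ifi203, Ifi208 and Ifi209 as without it. Depth limits Ifi208 and Ifi213 most, with at most 46 and 12 counts in a library.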

Other observations

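With the group means removed, pairs of the tested cluster genes ranged from alike to opposed across the 9 libraries. Among 36 pairs, Pearson's r of log2 CPM had a median of 0.264, and 23 pairs were above 0. The same median over pairs of other genes was not computed. Ifi209 and Mndal were the most alike (r = 0.855), followed by Mndal and Aim2 (0.795) and Ifi202b and Ifi204 (0.759). Ifi202b and Aim2 were the most opposed (-0.812). The points share libraries and their scaling, and the values are a description over few mice. Among all tested genes, the highest r was with G3bp1 and Zfand5 for Ifi202b (0.979 and 0.976), Sec13 and Igkv6-23 for Ifi203 (0.973 and 0.945), Fgr and Pkd1l3 for Ifi209 (0.975 and 0.961), Siglecg and Prkcb for Mndal (0.975 and 0.974) and Rsph1 and Zc3h6 for Aim2 (0.977 and 0.975). For Ifi204 it was with Ube2n and Eif5a, for Ifi205 with Parn and Sp5, for Ifi207 with Dennd4a and Pim1, and for Ifi208 with 4932435O22Rik and Mbd4, all between 0.948 and 0.968. With so many genes and so few mice, values this high are the upper end of a long list.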
